A study of Mus musculus with 2 samples.

Results

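Mir191 and Mir425 are neighbouring microRNA genes on mouse chromosome 9, and they are 2 of the 2202 microRNA genes counted in this hippocampus dataset. They were found by their symbols in GENCODE M21. They were chosen by their high counts in these libraries together with their adjacency, so their levels and ranks are a description and carry no test. The libraries are microRNA libraries (fragments below 30 nt per the labels) made from total RNA of tissue labelled layer of hippocampus, from male B6CASTF1/J mice aged 10 days, which are F1 hybrids between the strains C57BL/6J and CAST/EiJ. There is 1 untreated group with 2 biological replicates, and each replicate is labelled with 3 males. The animal numbers differ between the replicates but the donor identifier is the same, so the spread between them may in part be technical. The design holds no contrast between conditions, and a comparison of replicate 2 with replicate 1 compares those libraries only.

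MicroRNAs are cut from hairpin precursors in 2 steps, by Drosha in the nucleus and Dicer in the cytoplasm, and 1 arm or the other of the hairpin is loaded into an Argonaute protein. Bases 2 to 8 of the loaded strand, the seed, pair with target transcripts and lower their output. miR-191 and miR-425 are known to come from 1 primary transcript and are expressed in many tissues. miR-191 is widely used as a reference for qPCR of microRNAs, and in hippocampal neurons it has been linked to the remodelling of dendritic spines. miR-425 is known as a repressor of the natriuretic peptide gene NPPA.

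The hairpins are shown because the results turn on their position and strand. They are given 5' to 3' from RefSeq (GRCm38.p6, the same coordinates as mm10), with both mature arms in capitals. Mir191 lies at chr9:108568319-108568392 and Mir425 at chr9:108568777-108568861, both on the forward strand, and 384 bases separate them.
Mir191 hairpin: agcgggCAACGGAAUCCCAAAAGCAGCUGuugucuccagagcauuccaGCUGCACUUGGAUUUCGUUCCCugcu
Mir425 hairpin: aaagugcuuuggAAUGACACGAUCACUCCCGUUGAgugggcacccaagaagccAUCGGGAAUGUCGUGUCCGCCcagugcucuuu
The Mir191 hairpin is 74 bases long and the Mir425 hairpin 85, and their GC contents are alike at 54.1% each. Their longest shared run is 5 bases. Neither shares 20 consecutive bases with any other counted microRNA gene, as 1084 of the 2202 do. By that measure neither has a near-identical copy among these genes. Whether shorter or mismatched reads of the pair fit several places was not tested. Copies elsewhere in the genome were not searched for.

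The 4 mature sequences of the pair carry 4 different seeds, shown here in capitals. The files count reads per hairpin, so how a gene's reads divide between its arms is not known.
miR-191-5p: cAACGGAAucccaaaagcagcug
miR-191-3p: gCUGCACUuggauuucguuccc
miR-425-5p: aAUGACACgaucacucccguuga
miR-425-3p: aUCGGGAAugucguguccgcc
Among 1738 mature mouse sequences from RefSeq, no other one among them has the seed of miR-191-5p, miR-191-3p or miR-425-3p. The seed of miR-425-5p is shared with 1 other, a product of Mir489 on chromosome 6.
miR-489-3p: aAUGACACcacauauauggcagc
Mir489 had 0 counts in both libraries. The RefSeq sequences match 1032 of the 2202 counted genes by symbol, so the seeds of the others were not compared.

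The annotation of the locus depends on its source. In GENCODE M21 both hairpins lie inside the single exon of 4833445I07Rik-201, a lincRNA transcript on the same strand at chr9:108567533-108569174. A second transcript of that gene, 4833445I07Rik-202, has 2 exons, and Mir191 falls in the intron between them. Mir425 starts 3 bases past the last base of that transcript, with 2 bases between them. The protein-coding gene Dalrd3 begins 1024 bases after Mir425 in GENCODE M21, while RefSeq draws Dalrd3 from 108567484 to 108572773, across both hairpins. Whether the pair is called exonic in a noncoding transcript or internal to Dalrd3 therefore differs between these annotations.

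**Figure D1:**
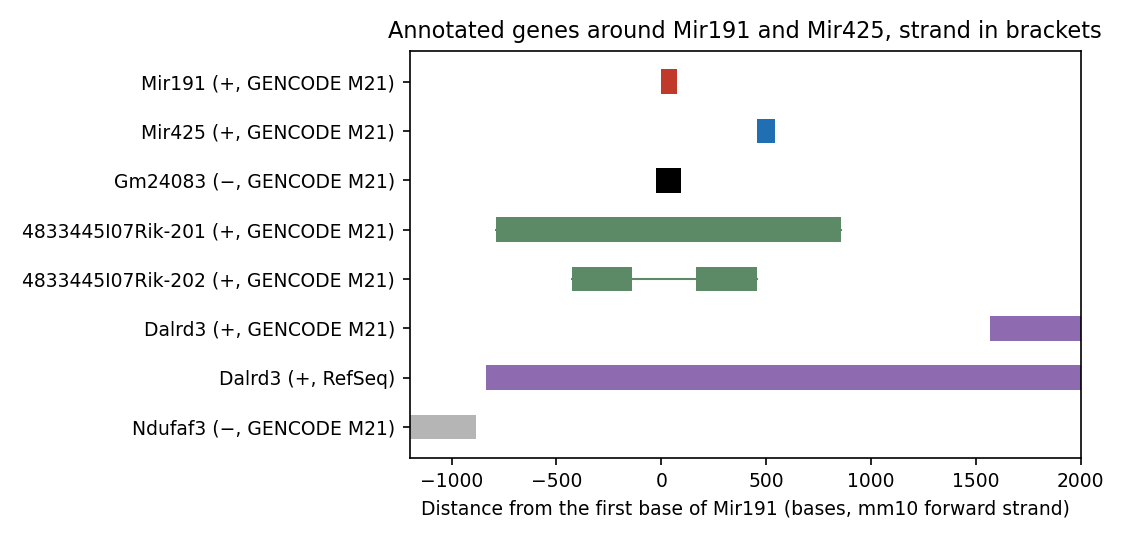
Annotated genes around Mir191 and Mir425, with the distance from the first base of Mir191 in bases on the x axis and 1 gene or transcript per row (boxes are exons for the 4833445I07Rik transcripts and whole genes otherwise, and Dalrd3 and Ndufaf3 run past the edges). Gm24083 on the reverse strand covers all of Mir191 and none of Mir425.

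On the opposite strand GENCODE M21 places another microRNA gene, Gm24083, at chr9:108568295-108568414. It covers Mir191 whole, reaching 24 bases before it and 22 bases after it, and it does not touch Mir425. Its 120 bases are printed from GENCODE's transcript on the reverse strand, with the 74 bases complementary to Mir191 in capitals.
Gm24083: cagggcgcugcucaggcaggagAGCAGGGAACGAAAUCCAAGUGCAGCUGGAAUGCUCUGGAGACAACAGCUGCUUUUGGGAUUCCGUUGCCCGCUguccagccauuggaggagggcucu
Any read lying within the Mir191 hairpin therefore lies within Gm24083 too, and only its strand tells the genes apart. The remaining microRNA gene within 100000 bases, Gm26298, lies 84746 bases past Mir425 on the reverse strand and had 0 counts in both libraries.

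Both genes were read on 1 strand only. Mir191 had 42551 sense counts in replicate 1 and 35844 in replicate 2, and 0 antisense counts in each. Mir425 had 4683 and 3622 sense counts, and again 0 antisense counts in each. Gm24083 had 0 sense counts in both libraries, and its antisense column held 42551 and 35844, the same numbers as the sense column of Mir191. At 3 counts for a count of 0, the sense level of Mir191 was at least 14184-fold higher than that of Gm24083 in replicate 1 and at least 11948-fold higher in replicate 2.

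In the unstranded column, where reads of both strands are counted together, Mir191 had 0 counts in both libraries. Mir425 kept its 4683 and 3622 counts there. The unstranded column sets aside reads that fall on more than 1 gene as ambiguous, 281108 in replicate 1 and 212068 in replicate 2. Mir191's sense counts equalled 15.1% of that total in replicate 1 (95% exact Clopper-Pearson interval 15.0 to 15.3) and 16.9% in replicate 2 (16.7 to 17.1). Against the limit that a count of 0 allows, Mir191 was at least 13356-fold lower in the unstranded column than in the sense column in replicate 1, and at least 11223-fold lower in replicate 2.

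Counts of 0 in the unstranded column were also found for other microRNA genes with a microRNA gene on the opposite strand. GENCODE M21 has 32 such overlaps among the counted genes, covering 64 genes. In each library the sense counts of these 64 genes minus their unstranded counts came to 281108 and 212068, exactly the ambiguous totals. Of the 29 overlapped genes with at least 10 sense counts over both libraries, 26 had 0 unstranded counts in both. CPM here is counts per 1000000 sense counts on genes. At a mean level of at least 1000 CPM there were 110 genes, and 9 of them were overlapped. By level, Mir191 was the third of those 9, after Mirlet7e of the let-7 family and the endothelial Mir126a. Among the 9, 8 had 0 unstranded counts in both libraries, the exception being Mir126a with 9 and 2. For every gene without an opposite-strand microRNA gene, unstranded counts equalled sense plus antisense counts in both libraries.

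**Figure D2:**
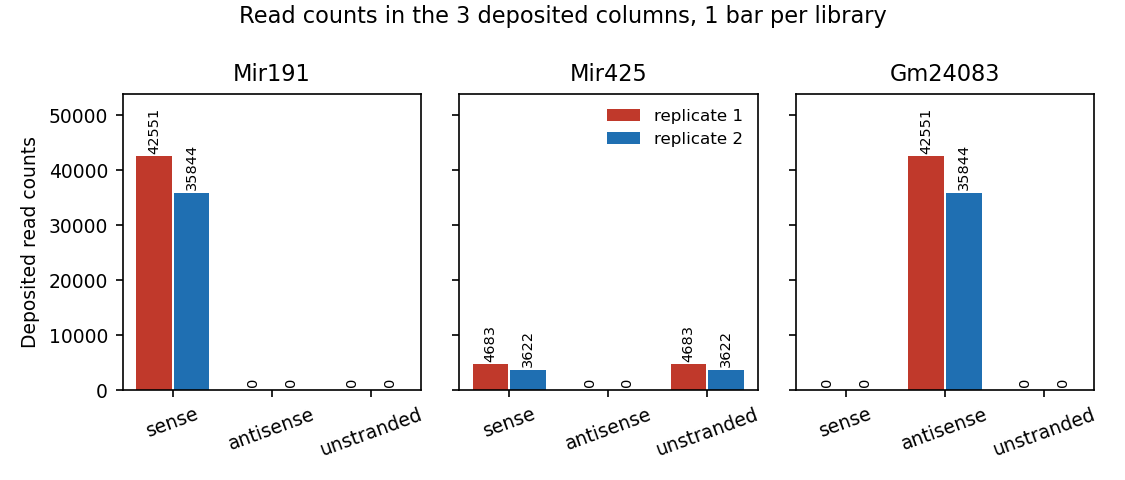
Deposited read counts (y axis, linear from 0) in the sense, antisense and unstranded columns for Mir191, Mir425 and Gm24083, with 1 bar per library and the count above it. Mir191 falls from 42551 and 35844 sense counts to 0 unstranded counts, Mir425 keeps 4683 and 3622, and the antisense column of Gm24083 repeats the sense counts of Mir191.

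In the sense column Mir191 was an abundant microRNA gene. Its level was 8836 CPM in replicate 1 (95% exact interval 8752 to 8920 CPM, from 4815761 counts on genes) and 10255 CPM in replicate 2 (10149 to 10361 CPM, from 3495401 counts). These intervals cover counting error only. The mean was 9545 ± 1003 CPM (SD, n = 2), which placed it 24th of 2202 genes, 25th in replicate 1 and 22nd in replicate 2. Of the 2202 genes, 1405 had 0 counts in both libraries, and reads that fit several places are outside the ranking. The intervals of the replicates did not overlap, and the spread between replicates (coefficient of variation 10.5%) was wider than counting error, at 0.485% and 0.528% in the libraries. With all reads in place of counts on genes as the denominator, that coefficient was 2.16%.

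Mir425 was about an order of magnitude lower. It had 972 CPM in replicate 1 (945 to 1001 CPM) and 1036 CPM in replicate 2 (1003 to 1071 CPM). The mean was 1004 ± 45.1 CPM (SD, n = 2), which placed it 110th, just above the 1000 CPM line, with rank 109 in replicate 1 and 115 in replicate 2. Its coefficient of variation was 4.49%, against counting errors of 1.46% and 1.66%. Together the pair made up 0.981% of the sense counts in replicate 1 and 1.13% of those in replicate 2, or 1.05% ± 0.105 (SD, n = 2).

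The genes next to the pair in rank could not be ordered against them. Mir22 stood directly above Mir191 at 9819 ± 7414 CPM and Mir324 directly below at 9199 ± 2576 CPM (SD, n = 2 for both), and both differences from Mir191 were smaller than these spreads. Mir27b stood directly above Mir425 at 1008 ± 565 CPM and Mir21a directly below at 996 ± 772 CPM (SD, n = 2 for both), again with differences far inside the spread. Mir27b shares bases with a copy, so its level is uncertain. Mir22, Mir27b and Mir21a were all higher in replicate 2, by 1.72, 1.21 and 1.78 on the log2 scale, and all 3 were called by the rule given below for the library comparison.

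The genes with the most similar values over the 2 libraries were found by distance in log2(CPM + 1). For Mir191 the closest was Mir541, a microRNA of the imprinted Dlk1-Dio3 region, with 9354 and 10330 CPM in replicates 1 and 2 at a distance of 0.083. Mir30d of the miR-30 family followed at a distance of 0.28, with 10544 and 9502 CPM, and Mir324 came next at 0.28, with 7378 and 11020.5 CPM. For Mir425 the closest was Mir376a, of the distal Dlk1-Dio3 cluster, with 1040.3 and 1069 CPM at 0.11. Mir672 stood at 0.14 with 889 and 1081 CPM, and Mirlet7c-1, which has near-identical copies, at 0.16 with 978 and 928 CPM. With 2 libraries this likeness describes levels and not a pattern across conditions.

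Mir191 outnumbered Mir425 by 9.09 to 1 in replicate 1 and by 9.90 to 1 in replicate 2, a mean ratio of 9.49 ± 0.573 (SD, n = 2). Put as a share, Mir191 made up 90.1% of the pair's counts in replicate 1 (95% exact interval 89.8 to 90.4) and 90.8% in replicate 2 (90.5 to 91.1). The odds ratio between the libraries was 1.09 (95% interval 1.04 to 1.14), with p = 0.00024 by a two-sided Fisher's exact test on the counts. That test sets 1 library against 1 other with counting error alone, so it says nothing of the spread among further samples. These are read counts of different microRNAs, and whether they were captured equally well was not tested.

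Between the libraries both genes changed little. Mir191 was 1.16 times as high in replicate 2, a log2 ratio of 0.21 (95% exact interval 0.19 to 0.24), with an adjusted p of 1.79e-94 by the exact binomial test with Benjamini-Hochberg adjustment over 540 genes. Mir425 was 1.07 times as high, a log2 ratio of 0.092 (0.029 to 0.15), with an adjusted p of 0.00833 by the same exact test. A gene was called where the adjusted p was below 0.05 and the absolute log2 ratio was at least 1, and 0 of the 2 genes were called. Across the 540 tested genes, 101 were called, or 18.7%, and 301, or 55.7%, passed the adjusted p alone, as did both members. The test holds counting error only, so at this depth small ratios pass the p threshold.

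For Mir425 the direction changed with the scaling. Over the 540 tested genes, the log2 ratio had a median of 0.17 when scaled by library totals, of 0.10 when scaled by TMM and of 0.00094 when scaled by DESeq2. Relative to the first of these medians, Mir191 lay at 0.043 and Mir425 at -0.080. Mir191 stayed higher in replicate 2 under each scaling, down to 0.044 with DESeq2 size factors, while Mir425 went to -0.079 with those factors and with all reads as the denominator.

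In size the ratios of Mir191 and Mir425 were below the median of the abundant genes. Over the 110 genes at 1000 CPM or more, the absolute log2 ratio had a median of 0.36 and reached 2.56, and 14 were called, or 12.7%. Of these genes, 16 had a ratio closer to 0 than Mir425 and 35 had one closer to 0 than Mir191. Those numbers depended on the scaling, and were 3 and 22 with TMM and 8 and 5 with DESeq2 size factors or all reads. Among the 91 genes without a near-identical copy they were 14 and 30 with library totals. Across 427 genes, edgeR put the shared variation beyond counting error at 38.6% of the level with TMM scaling. With library totals the coefficients of variation were 10.5% for Mir191 and 4.49% for Mir425. They were 7.08% and 1.05% with TMM, and 2.16% and 3.88% with all reads as the denominator. The measures are not alike. The coefficients include counting error and rest on 2 values each, while the 38.6% is pooled over genes down to 10 counts in each library.

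**Figure D3:**
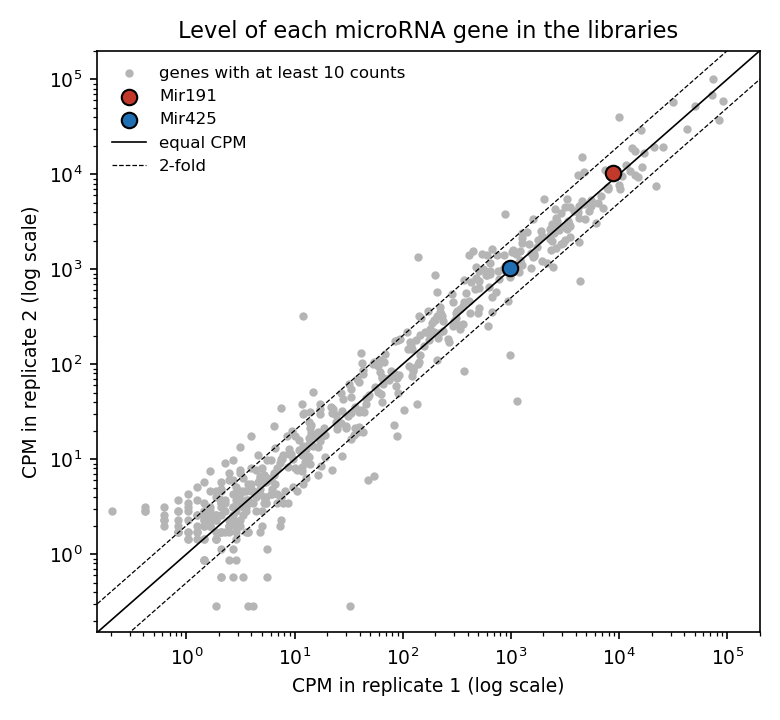
CPM in replicate 1 (x axis) against replicate 2 (y axis), both on log scales, with 1 point for each of the 535 tested genes that had counts in both libraries (the 5 at 0 in 1 library are not drawn). Mir191 (8836 and 10255 CPM) and Mir425 (972 and 1036 CPM) lie near the line of equal CPM and inside the dashed lines of a 2-fold difference.

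Markers of some cell types differed far more between the libraries than the pair did. The red blood cell list (Mir451a, Mir144 and Mir486) made up 0.123% of the counts of replicate 1 and 0.00764% of those of replicate 2, and 2 of its 3 genes were called lower there, against 7.22% of all tested genes. These 2, Mir451a (5505 and 145 counts) and Mir144 (263 and 23 counts), are neighbours with 99 bases between them. Mir486, which has a copy, was not called, at 31.6 and 28.3 CPM. The choroid plexus and ciliated cell list took 0.258% and 0.533%, with 3 of 6 tested genes called higher in replicate 2, against 11.5% of all tested genes. The called genes were Mir204 (1967 and 4921 counts), Mir34b (72 and 178) and Mir211, the last at only 2 and 10 counts. Mir449a, Mir34c and Mir449c were not called, at log2 ratios of 0.80, 0.92 and 1.11. The endothelial Mir126a had 14888 and 9301 CPM, a log2 ratio of -0.68, and was not called. Over all tested genes the absolute log2 ratio had a median of 0.54. The myeloid and lymphoid list took 0.0495% and 0.0906%, with 2 of 4 genes called higher, against 11.5% of all tested genes. Those were Mir150, at 372 and 776 CPM, and Mir223, at 15 and 47 counts. Mir155 (78.3 and 84.1 CPM) and Mir142 (41.3 and 32.9 CPM) were not called, and Mir142 was lower in replicate 2. The part of these cells in the levels of Mir191 and Mir425 was not tested. In tissue RNA, a change in the number of such cells and a change in RNA per cell cannot be told apart. The labelled tissue was checked against 15 brain microRNA genes, which took 2.49% and 3.05% of counts. Of these, 11 have near-identical copies, so their levels are uncertain. All 15 had at least 1 count in a library, which is a low bar, as Mir124a-2 met it with 0 and 2 counts. The neuronal Mir124a genes had at most 13 counts each, and all 3 have copies. The liver microRNA Mir122 stood at 39.5 and 31.5 CPM, and 4 of 5 striated muscle genes, all with copies, had 0 counts. The fifth, Mir206, has no copy and had 493 and 114 counts (102 and 32.6 CPM), and it was called lower in replicate 2 at a log2 ratio of -1.65 (adjusted p = 1.85e-33 by the exact binomial test).

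Mir191 and Mir425 were set beside 18 microRNA genes that are widely used or proposed as references. All 18 were tested, and 1 was called higher in replicate 2 and 2 were called lower. That is near the 18.7% called among all tested genes, so the count shows nothing particular to references. With library totals they had a median absolute log2 ratio of 0.42, against 0.54 over all tested genes and 0.36 over the 110 abundant genes. The tested genes go down to 10 counts, where counting error widens the ratios. The medians of the references and the abundant genes were 0.46 and 0.37 with TMM, and 0.46 and 0.41 with DESeq2 size factors. Scaled by library totals, 5 of the 18 had a ratio closer to 0 than Mir425 and 8 had one closer to 0 than Mir191. With TMM these numbers were 0 and 7, and with DESeq2 size factors or all reads they were 2 and 2. With library totals Mir484 and Mir93 were at log2 ratios of 0.014 and 0.029, closer to 0 than either member, with 2280 and 2303 CPM for Mir484 and 4775 and 4872 CPM for Mir93. With DESeq2 size factors the order reversed, with Mir484 at -0.16 and Mir93 at -0.14 against 0.044 for Mir191 and -0.079 for Mir425. With library totals Mir361 was at -0.048, with 4195 and 4057 CPM. At the other end, Mir423 fell by 1.13 on the log2 scale, from 4254 to 1946 CPM, and was called. Mir16-1 fell by 1.31 and Mir26a-2 rose by 4.73, both called, but both share bases with copies and are uncertain. Of the 18 genes, 10 have such copies, and these libraries cannot show how stable any of them is across conditions.

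**Figure D4:**
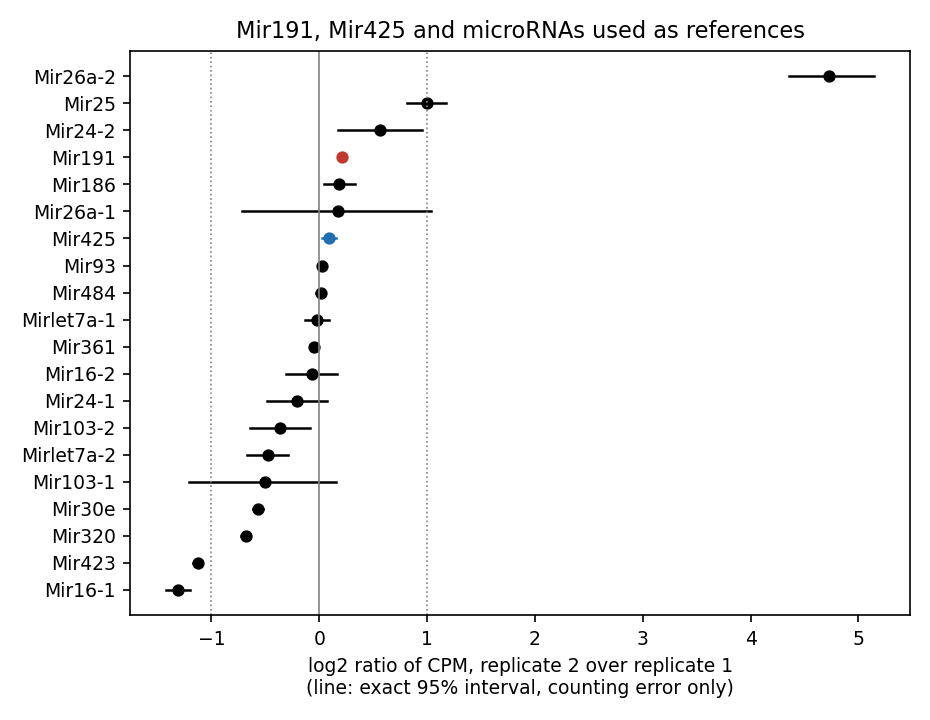
Log2 ratio of CPM, replicate 2 over replicate 1 (x axis), for Mir191 (red), Mir425 (blue) and 18 microRNA genes used as references (black), 1 gene per row, with lines for exact 95% intervals of counting error and dotted lines at -1 and 1. Mir191 (0.21) and Mir425 (0.092) are drawn with library-total scaling, under which both lie near 0, while Mir26a-2 (4.73), Mir423 (-1.13) and Mir16-1 (-1.31) lie outside the dotted lines.

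The ratios of the pair lay closer together than those of most neighbouring microRNA genes compared. Same-strand neighbours at most 10000 bases apart, with no further microRNA gene in the run, formed 97 pairs, and in 32 of these both genes had at least 10 counts. The log2 ratios of Mir191 and Mir425 differed by 0.12, the fourth smallest distance of the 32, against a median of 0.80. The pair directly closer was Mir194-2 and Mir192, at 0.12 to 2 decimals and with mean levels of 23.4 and 7.87 CPM, and the pair directly wider was Mir29a and Mir29b-1, at 0.30. Of the 15 pairs in which no gene has a copy, Mir191 and Mir425 had the smallest distance, and of the 23 pairs in which both genes had at least 100 counts they had the third smallest. This ordering is a description, since low counts widen the distance and were not corrected for.

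Abundant neighbours did not always move together. Mirlet7c-2 and Mirlet7b, the pair with the highest summed level, had log2 ratios of -0.14 and 0.43. Mir99a and Mirlet7c-1, next in level, had -0.61 and -0.076, and both of these pairs hold genes with copies. Mir296 and Mir298, the third in level and without copies, went opposite ways at -0.999 and 0.87. In level, the mean CPM of Mir191 was 9.50 times that of Mir425, close to the median of 9.65 over the 32 pairs, which ran up to 100.4 for Mir100 and Mirlet7a-2.

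**Figure D5:**
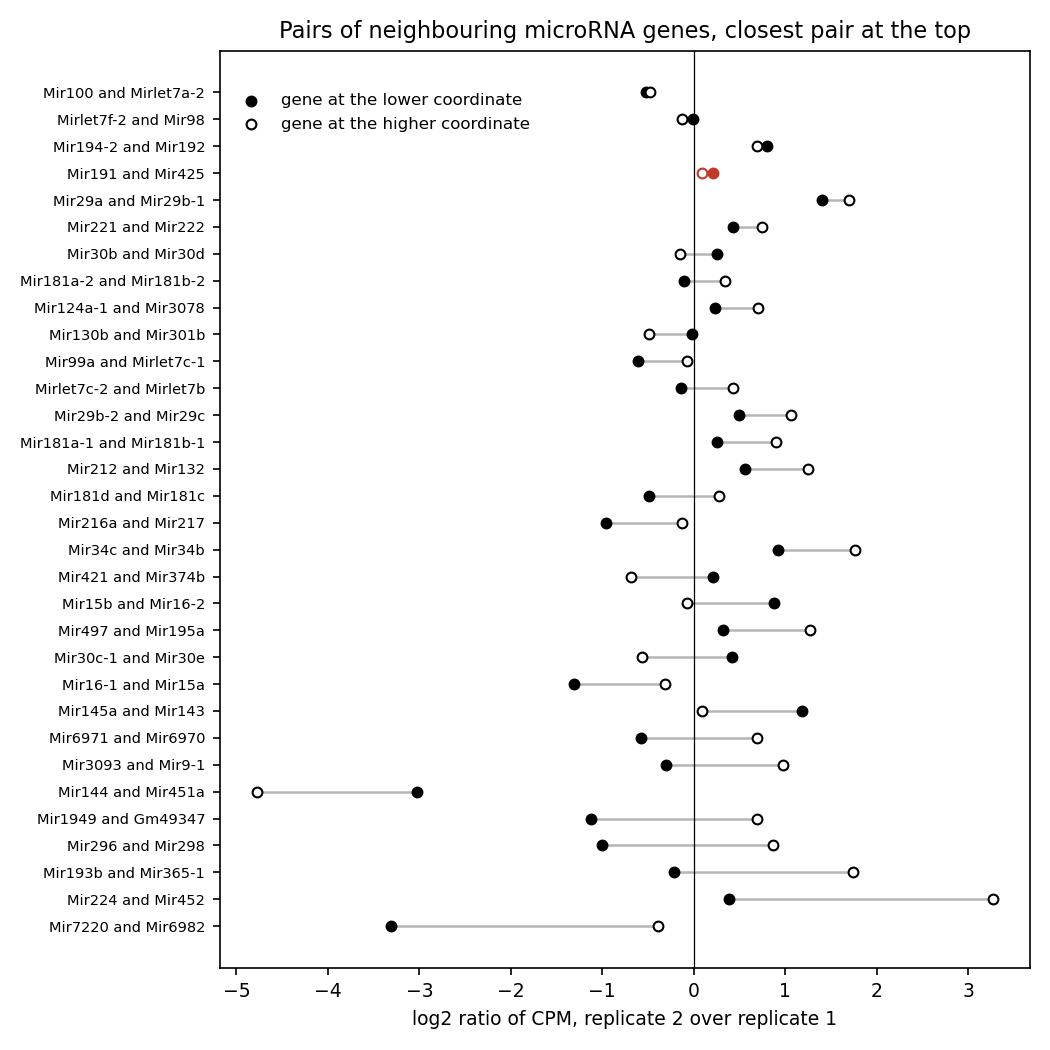
Log2 ratio of CPM, replicate 2 over replicate 1 (x axis), for the genes of 32 neighbouring pairs, 1 pair per row, joined by a line and ordered by the distance between them, with filled points for the gene at the lower coordinate. Mir191 and Mir425 (red, 0.21 and 0.092) form the fourth row, and Mir296 and Mir298 lie 1.87 apart.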

How the data were processed

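For each library the authors deposited 1 table of raw counts of reads on microRNA genes, in 3 columns (unstranded and each strand) below 4 lines of totals. The notes file deposited with each library names the build mm10 and the annotation GENCODE M21. Which aligner and counter were used is not given in the sources used here. Of the strand-specific columns, the one holding more counts on genes was taken as sense (4815761 against 281272 in replicate 1, 3495401 against 212165 in replicate 2). Reads that fit several places, 37.7% and 39.8% of all 12369585 and 10106239 reads, are outside the gene counts. The lines of totals entered neither library sizes nor tests. Any difference in counting between the parental alleles was not analysed here.

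All 2202 identifiers matched GENCODE M21. CPM was computed per 1000000 sense counts on genes. A count of 0 was taken to allow 3 counts. The libraries were compared at genes with a summed count of 10 or more, by a two-sided exact binomial test conditional on the library totals, with Benjamini-Hochberg adjustment over all of them and 0.5 counts added for log2 ratios. This was tested on simulated data with counting error only, which does not cover further variation between libraries. Near-identical copies share at least 20 consecutive bases of hairpin.

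Named genes were the members, the 3 closest genes to each, rank neighbours, microRNA genes within 100000 bases, genes sharing a seed, the reference list, and the 3 most abundant and the adjacent neighbour pairs. The overlapped and marker genes named were picked with their values in view. The members and lists were chosen with earlier results of these data known. Alternatives covered scaling, strand column, denominator, filters, pseudocount, copies and leaving out each replicate. Tests used SciPy 1.17.1 with numpy 2.4.6, tables pandas 2.3.3 and plots matplotlib 3.10.9, all under Python 3.11.15. TMM sizes came from edgeR 4.0.16 and size factors from DESeq2 1.42.0, under R 4.3.3.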

Additional observations from a re-analysis of the deposited data

Results flagged for a closer look

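The antisense column of Gm24083, which enters no level above, held 42551 counts in replicate 1 and 35844 in replicate 2, well over the 3 counts that a count of 0 allows. These equal the sense counts of Mir191 in both libraries, and the sense column of Gm24083 held 0.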

How the results depend on the processing

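With unstranded counts, the level of Mir191 went from 9545 CPM to 0 and the ratio of Mir191 to Mir425 from 9.49 to 0, and no ratio between libraries could be computed for Mir191, since its counts were 0. Mir425 went from 1004 to 1068 CPM, because the total over genes was smaller. With all reads, or genes plus several-place reads, as the denominator, Mir191 was at 3493 and 4629.6 per 1000000 and Mir425 at 368 and 488. With genes without copies as the denominator they were at 10639.9 and 1119. Leaving out a replicate gave 8836 to 10255 CPM for Mir191, 972 to 1036 CPM for Mir425 and 9.09 to 9.90 for their ratio. Mir425's log2 ratio of replicate 2 over replicate 1 reversed from 0.092 to -0.079 with DESeq2 size factors and to -0.079 with all reads as the denominator, and its adjusted p by the exact test ranged from 0.00641 to 0.616 over the alternatives. With no minimum of the log2 ratio, Mir191 (0.21) and Mir425 (0.092) were both called, among 301 genes in place of 101. Among genes without copies Mir425 ranked 91 in place of 110. Mir191's log2 ratio shrank from 0.21 to 0.044 with DESeq2 size factors, and Mir425's to 0.021 with TMM. How many reference or abundant genes lay closer to 0 than a member was recomputed under each scaling, an alternative chosen after seeing the data. Of 59 alternative values, 27 kept their direction and call or their size, 28 moved, 2 reversed and 2 became called. Depth limits Mir425 more than Mir191, as its counts give an interval of 0.029 to 0.15 for the log2 ratio.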
